A study of Bos taurus with 21 samples.

Results

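The genes examined here are 9 symbols commonly used to recognise macrophages: CD14, CD68, CD163, CSF1R, MSR1, MRC1, MARCO, ITGAM and AIF1. They were taken by symbol from the gene rows of the count tables, and 7 of the 9 had a row among 13570 gene rows. MRC1 and MARCO had none and were not analysed here. All 7 genes reached 10 counts in every cow, as did 7146 genes of the 12333 with a count in any cow.

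The RNA came from somatic cells of milk, the mixed cells that are shed or migrate into milk, of 21 Holstein cows, with 1 library per cow. The cows were labelled by milk yielding group, 9 of the high yielding group (HY) and 12 of the low yielding group (LY), and all were in parity 2 to 4. Each cow carried breeding values of milk yield, fat, protein and solid, for which no unit is given. The breeding value of milk yield lay between 181.118 and 468.053 in the HY cows and between -404.27 and 86.92 in the LY cows. Lactation period was 41 to 268 days in HY (median 168) and 52 to 270 days in LY (median 211.5). No treatment separated the cows, and no cell type was sorted.

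Macrophages are resident and recruited phagocytes of the udder and are among the usual cells of healthy milk, together with neutrophils, lymphocytes and shed epithelial cells. They depend on the receptor CSF1R for survival and sense bacterial lipopolysaccharide with CD14. They take up particles and modified lipoproteins through scavenger receptors such as MSR1, and bind haptoglobin-haemoglobin complexes with CD163. The label of surface genes fits most but not all members, since CD68 lies mainly in the membranes of endosomes and lysosomes and AIF1 is a cytosolic actin-binding protein. CD14 and ITGAM are also found on neutrophils. In bulk RNA, fewer cells of a type and less RNA per cell cannot be told apart.

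The counts on genes were 7878557 to 25550423 per cow in HY and 8585010 to 28541904 in LY. The 4 casein genes CSN1S1, CSN1S2, CSN2 and CSN3, which encode the main milk proteins of the secretory epithelium, held 0.0876% to 44.2% of these counts (median 4.34% in HY and 11.04% in LY). This casein share did not follow lactation period detectably over the 21 cows (r = -0.0893 with permutation p = 0.699, and rho = -0.105 with permutation p = 0.647, for Pearson and Spearman), but r was -0.331 without the 2 cows farthest from the median casein share and 0.00523 in the 16 cows with a lower mapping rate. In edgeR the casein genes had slopes of -0.65 (CSN2) to -0.98 (CSN3) log2 per 100 days of lactation, and the whey genes LALBA, PAEP and GLYCAM1 slopes of -1.43, -1.34 and -1.50, with the lowest adjusted p of these at 0.192. The 9 mammary epithelial markers summed to 37.8 CPM in HY cow 2814 and to 4279 CPM in HY cow 3280, the lowest and the highest cow. The 8 neutrophil markers with a count summed to 1727 to 13540 CPM, so that the libraries held more than macrophage RNA. CPM express the counts of a gene relative to the library total after scaling with the TMM factors of edgeR, which offset the share that a few abundant genes take. Levels of different genes are not compared, because no transcript length enters these values.

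CSF1R encodes the receptor for the growth factors CSF1 and IL34 that maintain macrophages. Its level was 115 CPM in the lowest, 484 in the median and 1074 in the highest HY cow, and 142, 391.8 and 714 CPM in LY. The lowest and the highest cow were both HY, cow 3280 and cow 2814, and the LY cows lay between them.

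CD14, the co-receptor that hands lipopolysaccharide to TLR4, ran from 204 through a median of 476 to 1008 CPM in HY. In LY the values were 108, 338 and 1247 CPM, so the LY range enclosed the HY range. The lowest was LY cow 2893 and the highest LY cow 7643.

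Of the scavenger receptors, CD163 binds haptoglobin-haemoglobin complexes. Its levels were 91.2, 184 and 843 CPM in HY and 81.1, 224 and 607 CPM in LY. MSR1 takes up modified lipoproteins and bacteria, and its levels were 90.1, 241 and 438 CPM in HY and 106, 276 and 506 CPM in LY. The groups overlapped in both genes. HY cow 2814 was the highest for CD163, while its MSR1 level of 156 CPM was under the median.

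ITGAM encodes the alpha chain of complement receptor 3, which pairs with the beta chain ITGB2. It had the widest range relative to its level, with 64.8, 495 and 1019 CPM in HY and 74.1, 329 and 786 CPM in LY. CD68 stood at 774, 2173 and 3415 CPM in HY and 902, 1459 and 3130 CPM in LY. AIF1 had the narrowest range, with 59.5, 111 and 181 CPM in HY and 60.2, 120 and 171 CPM in LY. HY cow 2814 was the highest for CD68 and ITGAM and HY cow 3280 the lowest, as for CSF1R.

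**Figure D1:**
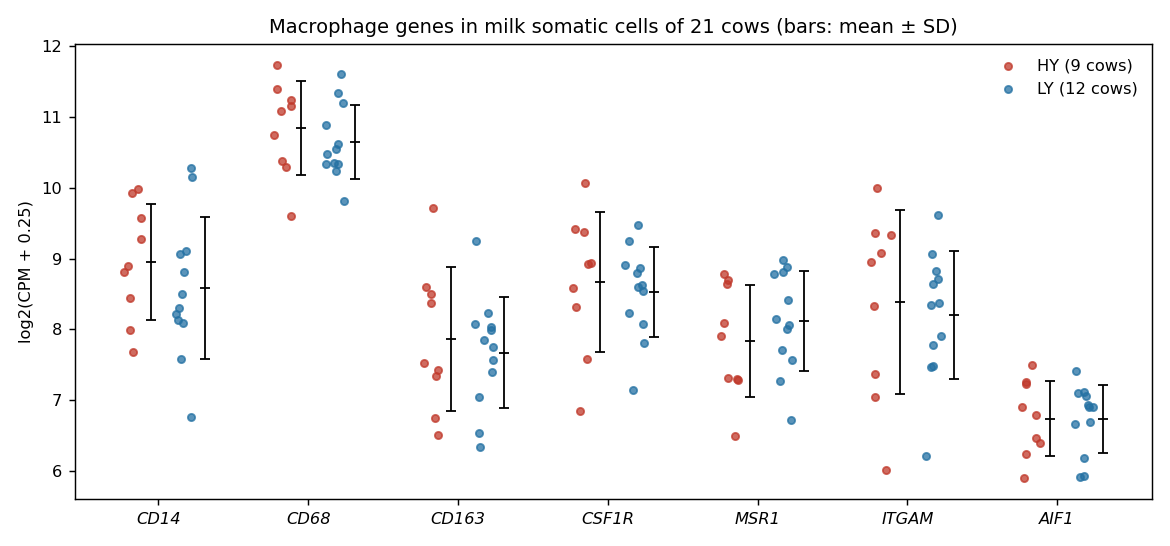
Level of each macrophage gene on the scale log2(CPM + 0.25) in 9 HY cows (red) and 12 LY cows (blue), 1 point per cow, with bars for mean ± SD of each group. The groups overlap for all 7 genes, and ITGAM spreads over the widest range while AIF1 has the smallest SD over all cows.

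Between cows, the highest level exceeded the lowest 15.7-fold for ITGAM, 11.5-fold for CD14, 10.4-fold for CD163, 9.38-fold for CSF1R, 5.62-fold for MSR1, 4.41-fold for CD68 and 3.04-fold for AIF1. On the scale log2(CPM + 0.25), the SD over the 21 cows was 1.06 for ITGAM, larger than that of 91.6% of these 7146 genes. It was 0.92 for CD14 and 0.87 for CD163. The SD of CD68 was 0.58 and that of AIF1 0.49, both under the median gene at 0.613. The macrophage genes therefore did not share one spread.

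The relation to the casein share asks whether the macrophage genes follow the part of a library that comes from milk protein mRNA. CSF1R, CD14, CD163, CD68 and ITGAM were lower in libraries with a larger casein share, while MSR1 and AIF1 showed no detectable relation. In the 2 cows with the lowest casein share, HY cow 3235 (0.0876%) and HY cow 2814 (0.141%), CD14 was 1008 and 975 CPM. In the 2 cows with the highest share, HY cow 3262 (44.2%) and HY cow 3280 (33.6%), it was 350 and 204 CPM. The drop was not seen in MSR1, which was 90.1 and 156 CPM in the first pair of cows and 271 and 160 CPM in the other.

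In edgeR's quasi-likelihood test with Benjamini-Hochberg adjustment over 12333 genes, 5 of the 7 members fell with the casein share and 0 rose. Of all genes tested, 20.1% passed, 9.71% falling and 10.3% rising, and the median slope of all genes was -0.0030. CD14 fell by 0.26 on the log2 scale per doubling of the casein share (SE 0.042, edgeR adjusted p = 0.000102). CSF1R fell by 0.20 (SE 0.043, edgeR adjusted p = 0.00217). CD68 fell by 0.14 (SE 0.037, edgeR adjusted p = 0.00791). CD163 fell by 0.20 (SE 0.054, edgeR adjusted p = 0.0117). ITGAM fell by 0.23 (SE 0.063, edgeR adjusted p = 0.0118). On the linear scale, per doubling, CD14 fell by 16.3%, CSF1R fell by 12.7%, CD68 fell by 9.54%, CD163 fell by 12.9% and ITGAM fell by 14.7%. The slope was 0.08 for MSR1 (SE 0.060, edgeR adjusted p = 0.407) and 0.03 for AIF1 (SE 0.039, edgeR adjusted p = 0.659).

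**Figure D2:**
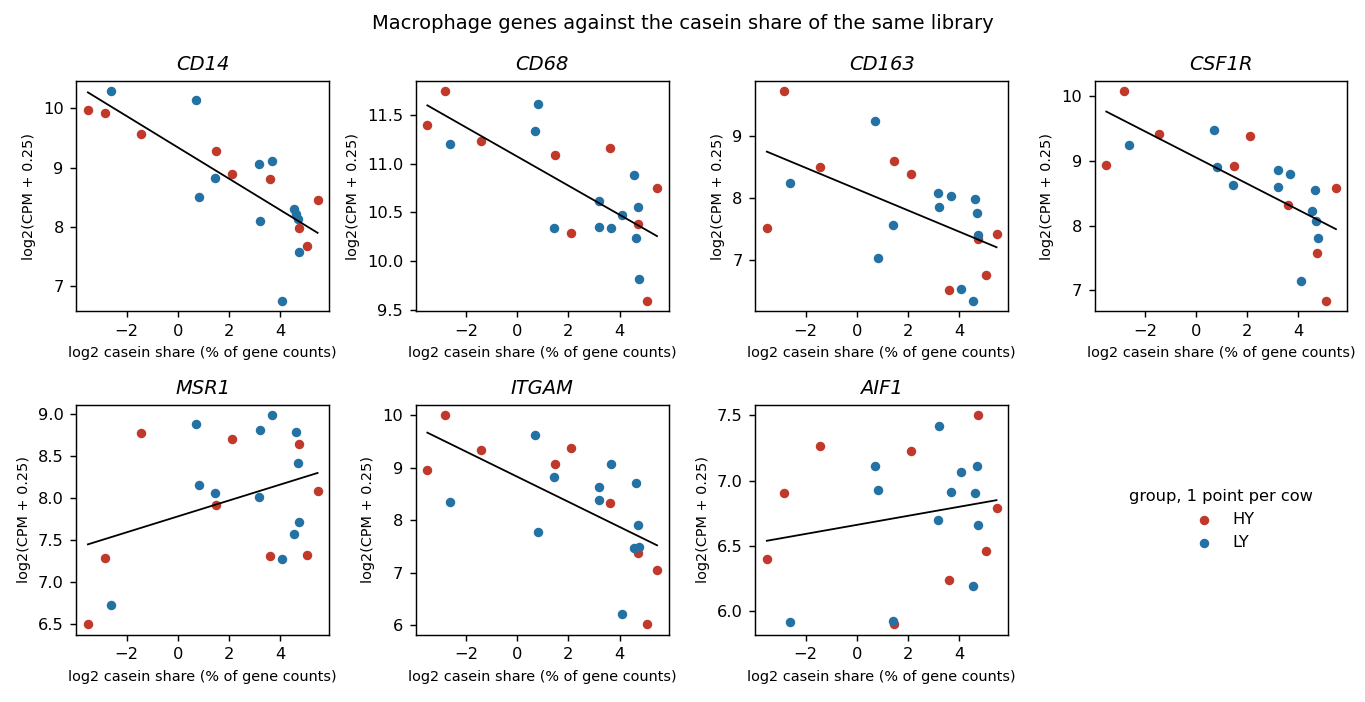
Level of each macrophage gene, log2(CPM + 0.25), against log2 of the casein share in percent of gene counts, 1 point per cow (HY red, LY blue), with a least-squares line. CD14, CD68, CD163, CSF1R and ITGAM slope down, whereas the lines of MSR1 and AIF1 slope slightly up without passing the test, and the slope of MSR1 turns to -0.081 without the 4 cows with a casein share under 1%.

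Several of these calls depended on which cows were in the fit, while the slopes of the 5 genes stayed negative. Without HY cow 2814, 3 of the 5 stayed under the threshold, and edgeR called 1854 of 12321 genes. The slope of CD163 was then -0.14 (SE 0.062, edgeR adjusted p = 0.127) and that of ITGAM -0.21 (SE 0.074, edgeR adjusted p = 0.0578). Without the 4 cows with a casein share under 1%, a choice made after seeing the data, 17 cows were left and 3 members passed, while the calls over all genes fell to 757 of 12266. There the slope of CD68 was -0.20 (edgeR adjusted p = 0.156) and that of CD163 -0.29 (edgeR adjusted p = 0.0868), and the slope of MSR1 turned to -0.081 (SE 0.092, edgeR adjusted p = 0.654). Within HY alone and within LY alone, also chosen afterwards, 1 member passed in edgeR, CD14 in both, and the calls over all genes were 540 of 11802 and 1132 of 12219.

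The correlations over the 21 cows ordered the genes in a similar way. For CD14, Pearson r was -0.807 (permutation p = 2e-05) and Spearman rho -0.827 (permutation p = 3e-05). Leaving out the 2 cows farthest from the median casein share gave r = -0.764 for CD14, and the 16 cows with a lower mapping rate gave r = -0.785. For CSF1R, r was -0.722 (permutation p = 0.00021) and rho -0.861 (permutation p = 2e-05), with r = -0.706 and -0.728 in those subsets. The corresponding r of CD68 was -0.729 (permutation p = 0.00017, rho -0.692, permutation p = 0.00073), with -0.634 and -0.751 in the subsets. ITGAM gave r = -0.630 (permutation p = 0.00231, rho -0.730, permutation p = 0.00019), with -0.567 and -0.687. CD163 had the weakest of these relations, with r = -0.554 (permutation p = 0.00941, rho -0.566, permutation p = 0.00872), then -0.545 and -0.568.

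MSR1 and AIF1 stood at r = 0.362 (permutation p = 0.108, rho 0.158, permutation p = 0.49) and r = 0.198 (permutation p = 0.39, rho 0.0883, permutation p = 0.704). The r of MSR1 was 0.0531 without the 2 farthest cows and 0.236 in the 16 cows. For AIF1 these values were 0.204 and -0.0613. A total of 42 relations of 7 genes to 6 variables were computed in this way, and the adjustment over genes is that of edgeR above.

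The log2 ratio of each of the 21 pairs of members was also set against the casein share, after the slopes had been seen. A ratio of 2 genes within a library does not depend on how the library is scaled. The ratios restate the slopes in the same cows, so they are given as a description with no test. The 10 ratios of CD14, CD68, CD163, CSF1R or ITGAM to MSR1 or AIF1 had an absolute Pearson r of 0.634 to 0.838 with the casein share. Of these, CSF1R over MSR1 had r = -0.838, which became -0.722 without the 2 cows farthest from the median casein share and -0.819 in the 16 cows. CD68 over MSR1 had r = -0.658, which became -0.431 and -0.615. The 10 ratios within those 5 genes had an absolute r of 0.0747 to 0.483, and MSR1 over AIF1 had r = 0.297, which became -0.143 without the 2 farthest cows.

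The levels of the macrophage genes were related to each other to differing degrees. CSF1R and ITGAM had the highest Pearson correlation of any pair over the 21 cows, with r = 0.896, and a Spearman rho of 0.862. CD14 and CSF1R followed with r = 0.855 and had the highest rho of any pair, 0.904. Among the 7145 other genes that reached 10 counts in all cows, CSF1R was at rank 16 in likeness to CD14. MSR1 and AIF1 had r = 0.636, with AIF1 at rank 211 of the genes most like MSR1 and MSR1 at rank 87 of those most like AIF1. The 10 pairs among CD14, CD68, CD163, CSF1R and ITGAM ran from r = 0.365 (CD68 with CD163) to 0.896, and the 10 pairs of these genes with MSR1 or AIF1 from -0.261 to 0.299.

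These pair values overlapped in subsets of the cows. Without the 2 cows farthest from the median of the first gene of a pair, r fell to 0.0841 for CD68 with CD163 and to 0.237 for CD68 with ITGAM. In the same setting r was 0.450 for MSR1 with ITGAM and 0.430 for CD163 with MSR1. In the 16 cows with a lower mapping rate, CD163 with AIF1 had r = 0.503 and CD68 with CD163 had r = 0.345. The values are descriptive, since the pairs share libraries and several of these genes follow the casein share.

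**Figure D3:**
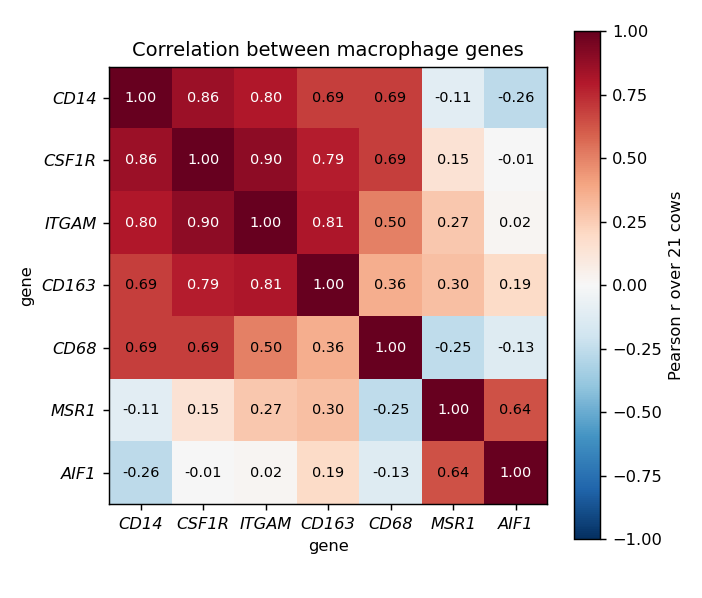
Pearson r between the log2(CPM + 0.25) levels of each pair of macrophage genes over 21 cows, both axes listing the genes and the colour giving r. CSF1R with ITGAM is the strongest pair at 0.896, and MSR1 with AIF1 stand at 0.636.

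For each member, the 3 most similar genes over the 21 cows were taken by Pearson r among genes reaching 10 counts in all cows, and none of them was another member. For CSF1R these were PSAP (r = 0.966), the precursor of the saposins of lysosomal lipid breakdown, the cytoskeletal crosslinker FLNA (0.965) and the lysosomal alpha-glucosidase GAA (0.954). CD68 was closest to ATP6AP1 (0.948), an accessory protein of the lysosomal proton pump, to the lysosomal sialidase NEU1 (0.922) and to PITPNA (0.911). CD163 was closest to the lysosomal peptidase TPP1 (0.883), SCPEP1 (0.878) and DDX24 (0.867). TPP1 (0.967) also led for ITGAM, followed by GNPDA1 (0.966) and a row whose symbol had turned into the calendar date 02-Sep (0.964).

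CD14 had SERPINB1 (0.905), an inhibitor of neutrophil serine proteases, EMILIN2 (0.899) and PLOD3 (0.888) as its closest genes. MSR1 was closest to PTPLAD2 (0.924), IPO11 (0.895) and the mitochondrial enzyme DECR1 (0.889). AIF1 was closest to GDE1 (0.876), the purine salvage enzyme HPRT1 (0.874) and TMEM45A (0.855).

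The genes of the pathways around the members are given by their counts. These counts are to be read against the 20.1% of all genes that passed, 9.71% falling and 10.3% rising. Of 9 tested genes of the lineage and the CSF1R axis, 2 fell in edgeR (1 in DESeq2), CSF1 itself by 0.31 (SE 0.086, edgeR adjusted p = 0.0125) and CSF2RB by 0.19 (SE 0.068, edgeR adjusted p = 0.0429), and 0 rose. The list median was -0.11 per doubling. CSF1 is the ligand of CSF1R, and CSF2RB is the shared signalling chain of the receptors for CSF2, IL3 and IL5.

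Around CD14, 4 of 11 genes of lipopolysaccharide recognition fell and 1 rose, with a list median of -0.06. The adaptor TICAM1 fell by 0.16 (SE 0.037, edgeR adjusted p = 0.00373) and the kinase IRAK1 by 0.13 (SE 0.035, edgeR adjusted p = 0.0128). TIRAP and TLR4 also fell. LBP, the soluble protein that delivers lipopolysaccharide to CD14, rose by 0.37 (SE 0.078, edgeR adjusted p = 0.00142).

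Around CD163, 3 of 10 genes of haem and iron handling fell and 1 rose, with a list median of -0.10. The iron transporter of phagosomes SLC11A1 fell by 0.17 (SE 0.028, edgeR adjusted p = 0.000102). HMOX1, which breaks down haem, fell by 0.21 (SE 0.041, edgeR adjusted p = 0.000576), and the ferritin heavy chain FTH1 fell as well. The iron exporter SLC40A1 rose by 0.16 (SE 0.041, edgeR adjusted p = 0.00915).

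Of 14 other scavenger and lectin receptor genes, 3 fell (LGALS3, STAB1 and MERTK) and 2 rose, COLEC12 and STAB2, with a list median of -0.08. LGALS3 fell by 0.21 (SE 0.057, edgeR adjusted p = 0.00927). COLEC12 rose by 0.62 per doubling (SE 0.078, edgeR adjusted p = 3.08e-06), and STAB2 by 0.88 (SE 0.15, edgeR adjusted p = 0.000189) from few counts.

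Beside ITGAM, 3 of 8 integrin and adhesion genes fell and 0 rose, with a list median of -0.14. The partner chain ITGB2 fell by 0.19 (SE 0.046, edgeR adjusted p = 0.00497), the integrin activator TLN1 by 0.23 (SE 0.048, edgeR adjusted p = 0.00148) and FERMT3 by 0.14 (SE 0.039, edgeR adjusted p = 0.0155). Of 8 Fc and complement receptor and C1q genes, C1QC and C1QB fell, by 0.31 (SE 0.068, edgeR adjusted p = 0.00233) and by 0.20 (SE 0.064, edgeR adjusted p = 0.0281), and 0 rose. Of 10 lysosomal genes of phagocytes, the proteases CTSD and CTSB and the membrane protein LAMP1 fell, by 0.25 (SE 0.042, edgeR adjusted p = 0.000111), 0.20 (SE 0.045, edgeR adjusted p = 0.00284) and 0.15 (SE 0.042, edgeR adjusted p = 0.0140), and 0 rose.

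Markers of other cells were read beside these results. None of the 8 neutrophil markers or 11 T cell markers passed in edgeR or DESeq2, nor did any reach an unadjusted p under 0.05 in edgeR, as 32% of all genes did, and their median slopes were -0.04 and -0.05. Of 6 B cell markers POU2AF1 and BLK fell, and of 5 dendritic cell markers CD83 and ZBTB46 fell. Of 9 mammary epithelial markers 6 rose and 0 fell, led by ELF5, a transcription factor of secretory epithelium (1.03 per doubling, SE 0.062, edgeR adjusted p = 1.93e-11), KRT19 (0.66, SE 0.097, edgeR adjusted p = 2.26e-05) and EPCAM (0.50, SE 0.084, edgeR adjusted p = 0.000126). The part of a changing mix of cells in the slopes of the macrophage genes was not tested.

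**Figure D4:**
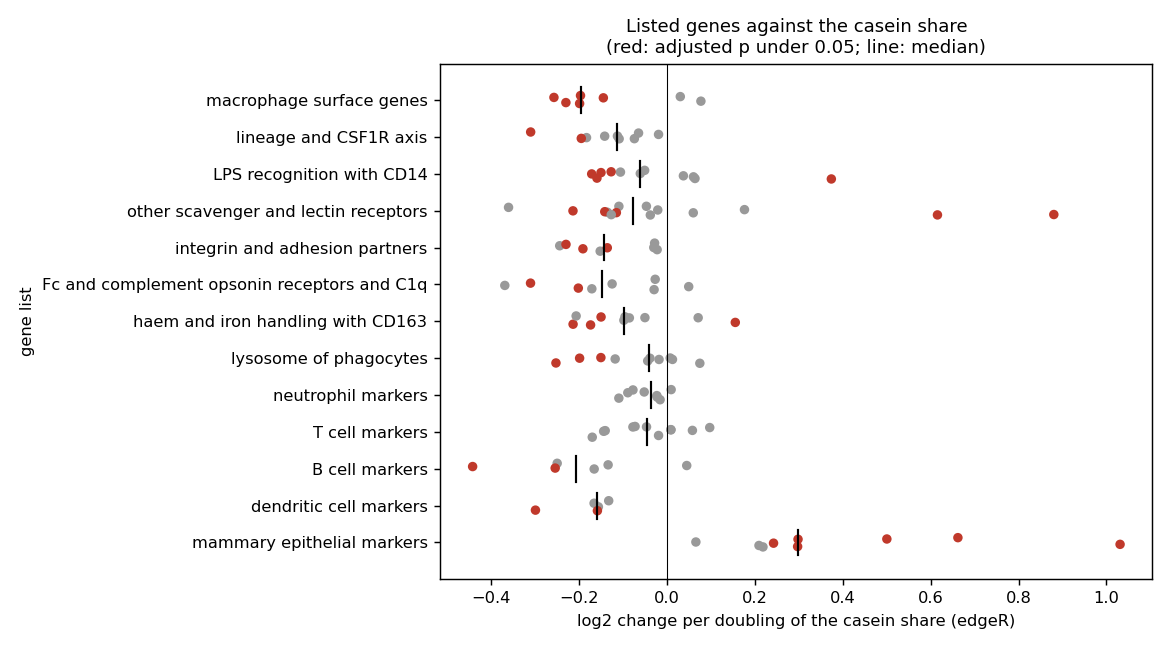
Slope of each listed gene in log2 change per doubling of the casein share (edgeR), 1 point per gene and 1 row per gene list, red for adjusted p under 0.05 and a vertical line at the list median. The macrophage genes have a median of -0.20 and the mammary epithelial markers one of 0.30.

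Lactation period asks whether the genes change as lactation proceeds. None of the 7 members passed in edgeR, where 0.0243% of all genes did, and none had an unadjusted p under 0.05, where 22.3% of all genes did. DESeq2 called 865 genes, and 0 of them were members. AIF1 came closest, with a slope of -0.24 per 100 days (SE 0.125, edgeR adjusted p = 0.248). The Pearson r of AIF1 with lactation period was -0.449 (permutation p = 0.0423) and its Spearman rho -0.430 (permutation p = 0.0525). For AIF1, r became -0.379 without the 2 cows farthest from the median and -0.308 in the 16 cows. The other slopes ran from -0.29 for CD163 (SE 0.219) to 0.11 for CD14 (SE 0.245) per 100 days. The difference in lactation slope between HY and LY passed for 0 members and for 0 genes in edgeR, with 0 members and 2.61% of genes at an unadjusted p under 0.05. DESeq2 called 0 members in this comparison.

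No member of the 12 pathway and cell type lists passed against lactation period in edgeR, and DESeq2 called 1 gene in each of the lineage, lipopolysaccharide, scavenger, lysosome and B cell lists and 0 in the others. At an unadjusted p under 0.05, positive and negative slopes numbered 4 and 0 of 9 lineage genes, 2 and 1 of 11 lipopolysaccharide genes, 1 and 1 of 14 scavenger receptors, 1 and 1 of 8 Fc and C1q genes, 1 and 2 of 10 haem and iron genes and 0 and 1 of 10 lysosomal genes. They numbered 3 and 0 of 8 neutrophil, 1 and 1 of 6 B cell and 0 and 1 of 9 epithelial markers, and the integrin, T cell and dendritic cell lists had 0 in either direction. Of all genes, 9.58% had a positive slope at that level and 12.8% a negative one.

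**Figure D5:**
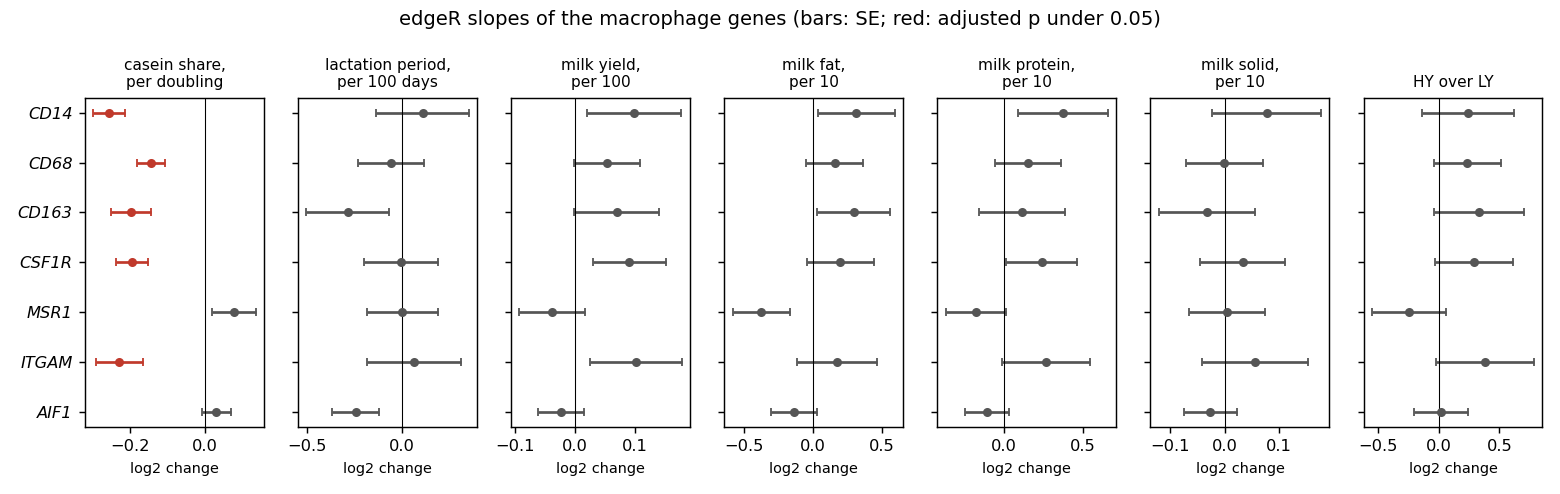
Slopes of the macrophage genes from edgeR against each variable and the HY over LY difference, in log2 change, with bars for the SE and red for adjusted p under 0.05. Each panel has its own scale, and red points occur against the casein share alone.

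The milk traits ask whether the genes follow the breeding values. No member passed in edgeR or DESeq2 for any of the traits, and none had an unadjusted p under 0.05 in either tool. Of all genes, 0.105% passed in edgeR for milk yield, 0.0324% for milk solid and 0% for fat and for protein, while 3.7%, 3.13%, 2.87% and 2.77% had an unadjusted p under 0.05. The traits are not separate tests, since the breeding values of milk yield and protein had r = 0.967 over the cows. Per 100 units of milk yield, slopes ran from -0.04 for MSR1 (SE 0.054) to 0.10 for ITGAM (SE 0.077). The largest distance from 0 relative to its SE was that of MSR1 with milk fat, with a slope of -0.38 per 10 units (SE 0.209, edgeR adjusted p = 0.999). Its Pearson r was -0.396 (permutation p = 0.0764) and its Spearman rho -0.462 (permutation p = 0.0372). None of the 28 Pearson correlations of a member with a trait had a permutation p under 0.05.

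HY and LY overlapped for every member, and edgeR called 0 members and 0% of genes between them, with 0 members and 4.7% of genes at an unadjusted p under 0.05. DESeq2 called 1 gene and 0 members. On the scale log2(CPM + 0.25), CD14 was 8.95 ± 0.82 in HY (SD, n = 9) and 8.58 ± 0.996 in LY (SD, n = 12), an HY minus LY difference of 0.37 (exact permutation p = 0.377, two-sided). MSR1 was the one gene with the lower mean in HY, 7.84 ± 0.79 (SD, n = 9) against 8.11 ± 0.71 (SD, n = 12), a difference of -0.28 (exact permutation p = 0.401). The exact p of the other 5 genes ran from 0.437 for CD68 to 0.978 for AIF1.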

How the data were processed

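For each cow the authors deposited raw read counts per gene, without normalization. Per the study's methods, reads were trimmed with Trimmomatic, mapped to BosTau7 with Bowtie2 within TopHat2 and counted with HTSeq. Strand handling is not given in the sources used here. A row naming no gene (0.036% to 0.151% of counts per cow) was left out. No libraries were duplicates within counting noise (lowest chi-square per degree of freedom 33.7 over 210 pairs). Every comparison was fitted with edgeR 4.0.16 (R 4.3.3, TMM, quasi-likelihood test, all 21 cows) over 12333 genes. The threshold was 0.05 on the Benjamini-Hochberg adjusted p. Each fit held 1 variable and no covariate, except that of the difference in lactation slope. That fit held group, lactation period and their interaction, and the interaction was tested. The fixed plan did not name a mode of the edgeR fit. Both modes were run on these data, and the default of the installed version (legacy) was kept after both outputs had been seen. Correlations used log2(CPM + 0.25) and 100000 permutations, two-sided, and HY was set against LY by an exact permutation test over 293930 splits (Python 3.11.15). Alternatives included DESeq2 1.42.0, other size factors, a count filter, subsets of cows, covariates and regression. A class of mapping rate (16 lower, 5 higher) was set here from the rates in the study's supplement, which names no class. Of the 5 higher cows 1 was HY. The fit was tested on simulated counts.

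Named are all members and the 3 genes most like each member. For the casein share in edgeR, up to 3 genes with the lowest p per list and every listed gene of a count of 5 or fewer are named. The genes behind the list counts for lactation period and for DESeq2 are not named. Members and lists were chosen with earlier results of these data known. Cows are separate animals with 1 library each, so technical error was not measured apart.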

Additional observations from a re-analysis of the deposited data

How the results depend on the processing

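The 5 members that fell with the casein share did so under other size factors, a minimum of 10 counts in each cow, DESeq2, the 16 cows with a lower mapping rate, totals without casein and whey genes, covariates, the untransformed percent and the other edgeR mode. Calls over all genes were 2438 of 12333 with other size factors, 1943 of 7146 with the filter and 1212 of 12117 in 16 cows. Of 12333 genes, edgeR called 2457 without milk genes in the totals and 2535 with covariates. The untransformed percent gave 2143 and the other mode 2570, and DESeq2 called 2811. Under regression on log2(CPM + 0.25) and log2(CPM + 1), CD163 missed the threshold with adjusted p = 0.0506 and 0.0502. The regressions called 2234 and 2255 of 12333 genes. Leaving out 1 cow gave 3 to 5 members called (3 without HY cow 2814). Calls over all genes then ran from 1663 of 12307 to 2758 of 12329. Of the choices made after seeing the data, members called were 3 without the cows under 1% casein share, 1 in HY alone and 1 in LY alone. MSR1 had a slope of -0.081 without those cows, and AIF1 one of -0.0018 in the 16 cows. Outside the casein share 0 members were called in any setting, the lowest adjusted p being 0.125.

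Both edgeR modes had been run before one was kept. The mode not kept called 2570 genes for the casein share against 2473, 56 against 3 for lactation period, 0 against 13 for milk yield and 0 against 4 for milk solid, with the same number of members in each. DESeq2 called 865 genes for lactation period, 0 for milk yield, 3 for milk protein and 1 for milk solid. Against the casein share DESeq2 called 2811 of 12333 genes, 1605 of them rising. Its falling genes were 1 of the lineage list, 1 of the B cell list and 4 of the integrin list. In edgeR these counts were 2, 2 and 3. DESeq2 also called 2 rising genes of the lipopolysaccharide list and 8 of the mammary epithelial list, against 1 and 6 in edgeR.

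Of 1680 member values under alternatives, 1573 kept direction and side, 14 lost the threshold and 93 changed sign, 62 of these on leaving out a cow, and 0 of the 93 had an adjusted p under 0.05. The cause was not tested. For lactation period, CSF1R (-0.0031 as reported) was 0.037 with other size factors, 0.046 with the filter, 0.037 in DESeq2, 0.012 without milk genes in the totals, and 0.16 in both regressions. MSR1 was -0.0012 and -0.0011 in these, and CD14 -0.035 in the 16 cows. For milk solid, CD68 was 0.0060 with other size factors and in DESeq2, 0.0035 with the filter, 0.0049 without milk genes, 0.019 with covariates, and 0.0015 in both regressions. CD163 was 0.046 with covariates and 0.0044 and 0.0043 in the regressions, MSR1 was -0.024 with covariates, and AIF1 was 0.0018 in the 16 cows and 0.0042 with covariates. For milk fat, AIF1 was 0.023 in the 16 cows. For HY over LY, AIF1 was -0.014 with the filter and -0.015 with covariates. For the lactation slope in HY minus LY, ITGAM was 0.00043 with the filter, 0.050 in the 16 cows and 0.0063 without milk genes, and CD14 was 0.37 in the 16 cows.

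On leaving out a cow, edgeR called 0 to 428 genes for lactation period, 428 of 12296 without LY cow 3407, and 0 members. Lactation slopes then ran from -0.10 to 0.089 for CD68, -0.37 to 0.030 for CD163 and -0.070 to 0.28 for CSF1R. They ran from -0.068 to 0.095 for MSR1 and -0.011 to 0.44 for ITGAM. The upper ends for CSF1R and ITGAM were those without HY cow 2814. Milk solid slopes ran from -0.026 to 0.035 for CD68, -0.069 to 0.050 for CD163, -0.0037 to 0.096 for CSF1R and -0.030 to 0.042 for MSR1. HY over LY ran from -0.055 to 0.56 for CD163 and -0.10 to 0.11 for AIF1. The slope difference ran from -0.54 to 0.40 for CD14, -0.00057 to 0.46 for CD68, -0.51 to 0.55 for CD163, -0.33 to 0.50 for CSF1R and -0.29 to 1.12 for ITGAM. No paired analysis was possible because the labels give no number shared by cows of HY and LY.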
